A study of Mus musculus with 2 samples.

Results

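The core clock set comprises 10 genes of 18193 on the array: the 3 activators Arntl, Clock and Npas2 and the 7 repressors Per1, Per2, Per3, Cry1, Cry2, Bhlhe40 and Bhlhe41. They were listed by gene symbol and role, with earlier results of these data known, and all probe sets annotated with 1 of these symbols alone were used, 23 of 45101. A probe set is a group of short probes on the array that reports on 1 transcript. Liver RNA came from male wild-type C57BL/6J mice, an inbred laboratory strain, housed singly under 12 h of light and 12 h of darkness and assigned at random to a diet at 8 weeks of age. The ad libitum (AL) group ate freely for 12 weeks. The calorie-restricted (CR) group received 20% less food in week 1 and 40% less over the 11 weeks after it. Livers are labelled as taken at 5 months of age. RNA of 3 mice per diet was combined in equal amounts, and each pool was hybridised to its own Affymetrix array, so each diet is 1 measurement. Neither a p-value nor a spread between mice could be had, and precision is limited by having 1 array per diet. The clock time of feeding and of tissue collection is not given in the sources used here.

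The mammalian clock is a feedback loop of transcription. ARNTL, also called BMAL1, pairs with CLOCK or its relative NPAS2, and the pair binds E-box sequences and switches on the Per and Cry genes, whose protein products return to the nucleus and block the pair. BHLHE40 and BHLHE41, also called DEC1 and DEC2, bind E-boxes as repressors. In a connected loop, the nuclear receptors REV-ERB and ROR act on elements called ROREs in Arntl and other genes, and PAR bZIP factors act on D-boxes. In liver the loop drives daily rhythms of many metabolic genes, and feeding time is a strong setting signal for it. Transcripts of activators and of Per and Cry genes peak at different hours, so a level taken at a single hour depends on the phase.

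The promoter stretches of 5 members show which of these elements lie close to an annotated start, beside members whose values differed and members whose values did not. They were copied from RefSeq, build GRCm38.p6, and are written 5' to 3' on the strand of the gene, with matches to the searched motifs in capitals. Cry1 and Per1 hold the same E-box letters and differed in their values, Bhlhe41 holds an E-box and lay at the edge of detection, Per3 holds a pair of D-boxes, and Arntl holds a RORE within the transcribed start.
Cry1, chr10:85185075-85185174, minus strand, E-box: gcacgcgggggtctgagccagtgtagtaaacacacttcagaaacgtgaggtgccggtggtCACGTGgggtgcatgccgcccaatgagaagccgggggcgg
Per1, chr11:69098759-69098947, plus strand, E-box then D-box: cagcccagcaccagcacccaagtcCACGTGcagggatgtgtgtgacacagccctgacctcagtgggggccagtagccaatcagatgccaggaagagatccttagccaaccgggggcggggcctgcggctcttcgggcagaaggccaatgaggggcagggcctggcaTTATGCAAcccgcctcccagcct
Bhlhe41, chr6:145865521-145865620, minus strand, E-box: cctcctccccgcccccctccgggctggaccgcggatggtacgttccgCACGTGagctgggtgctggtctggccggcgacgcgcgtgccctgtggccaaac
Per3, chr4:151044791-151044890, minus strand, D-boxes: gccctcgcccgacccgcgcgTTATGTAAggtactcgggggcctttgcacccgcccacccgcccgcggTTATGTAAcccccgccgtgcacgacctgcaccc
Arntl, chr7:113207528-113207557, plus strand, RORE: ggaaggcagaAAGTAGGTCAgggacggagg

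Promoter windows ran from 250 bases before to 50 after an annotated start, and 8 members had 1 or more of them, 12 windows in all. Per2 and Bhlhe40 had no window in the sequences used, so they were not searched. The search covered both strands for the E-box CACGTG, for the D-boxes TTATGTAA, TTACGTAA and TTATGCAA, for ROREs (AANT followed by AGGTCA or GGGTCA), and for the cyclic AMP element TGACGTCA. No match of a member overlapped another. The E-box was found in Cry1, Per1 and Bhlhe41, which is 3 of the 12 member windows, against 7.15% of all 32851 windows. It began 60 bases before the start in Cry1, 166 before it in Per1 and 153 before it in Bhlhe41. A D-box was found in Per1, 24 bases before the start, and in Per3, 205 and 158 bases before it, which is 2 of the 12 member windows against 1.78% of all windows. The Arntl RORE began 27 bases after the more downstream of its 2 annotated starts, so that 1 of the 12 member windows held a RORE, against 0.435% of all windows. The cyclic AMP element was in none of the member windows and in 1.79% of all. A match describes these letters only, and the files hold no binding data.

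Among the activators, Arntl was slightly lower in the CR pool, Npas2 was too faint to give a direction, and Clock had probe sets on both sides of 0. Differences are log2 intensity in CR minus that in AL, so 1 is a 2-fold difference, and intensity is the deposited brightness in linear units. A probe set was in the measured range if the higher of its 2 intensities reached 7.38, the median over both arrays, and the brightest probe set by mean log2 intensity stood for its gene. In pools of whole liver, fewer cells of a type and less RNA per cell cannot be told apart.

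Arntl, the partner that every activator pair needs, read 17.8 in AL and 14.7 in CR. Its second probe set read 9.36 in AL and 7.63 in CR. Both lay lower in CR and by nearly the same amount, -0.27 and -0.29. Among the 500 probe sets in the measured range closest in mean intensity, the central 95% of differences ran from -1.01 to 0.81 around the first and from -0.79 to 0.66 around the second, so neither Arntl value stood outside that of probe sets of like brightness.

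Clock, which encodes the usual partner of ARNTL, had 4 probe sets, of which 3 were in the measured range. The probe set that stood for the gene read 41.6 in AL and 54.7 in CR, a difference of 0.39. A probe set of almost the same mean brightness read 48.6 in AL and 46.1 in CR, a difference of -0.08. The third of the measured probe sets read 27.1 in AL and 21.2 in CR, a difference of -0.35. The sign for Clock thus rested on which probe set was taken, and their SD of 0.38 was about the size of the differences themselves. The remaining probe set stayed below the range, at 4.25 in AL and 4.29 in CR.

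Npas2, which can stand in for CLOCK, lay at the edge of detection. Its probe set read 7.51 in AL and 5.66 in CR, a difference of -0.41, and entered the measured range through the AL pool alone. Against the limit it was at least 1.02-fold lower in CR. Since AL alone reached the limit, a negative sign was fixed by it, and no direction was read for Npas2. The other Npas2 probe set was below the limit in both pools, at 5.84 in AL and 5.45 in CR.

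Among the repressors, Cry1 was the member with a difference of at least 2-fold, and it was higher in the CR pool. Of the 10 members, 1 was higher past this threshold and none lower, whereas of all 12644 measured genes 1.8% were higher past it and 2.79% lower. At 1.5-fold, Cry1 and Per2 were higher, against 6.76% of all measured genes, and no member was lower, against 9.49%. Per2 passed this threshold narrowly, at 1.506-fold. With 1 array per diet these counts rest on size and are not a test.

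Cry1, which encodes a cryptochrome that binds the activator pair and shuts it off, read 38.6 in AL and 160.2 in CR. The difference was 2.05, or 4.15-fold, and it ranked 32 from the top of the 12644 measured genes. Among the 500 probe sets of like brightness the central 95% ran from -1.25 to 1.10, and 99.4% of them lay below the Cry1 value. Cry1 had a single probe set, so no other probe set of the gene could be set beside it. That probe set is of the _a_at type, which can match several transcripts of the same gene, and without this type Cry1 had no value.

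Cry2, the paralog of Cry1 with the same repressor role, had 16.7 in AL and 16.3 in CR. Its difference of -0.04 was close to the median of -0.02 over all measured genes. The 2 cryptochrome genes therefore had unlike values in these pools, each on 1 probe set.

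**Figure D1:**
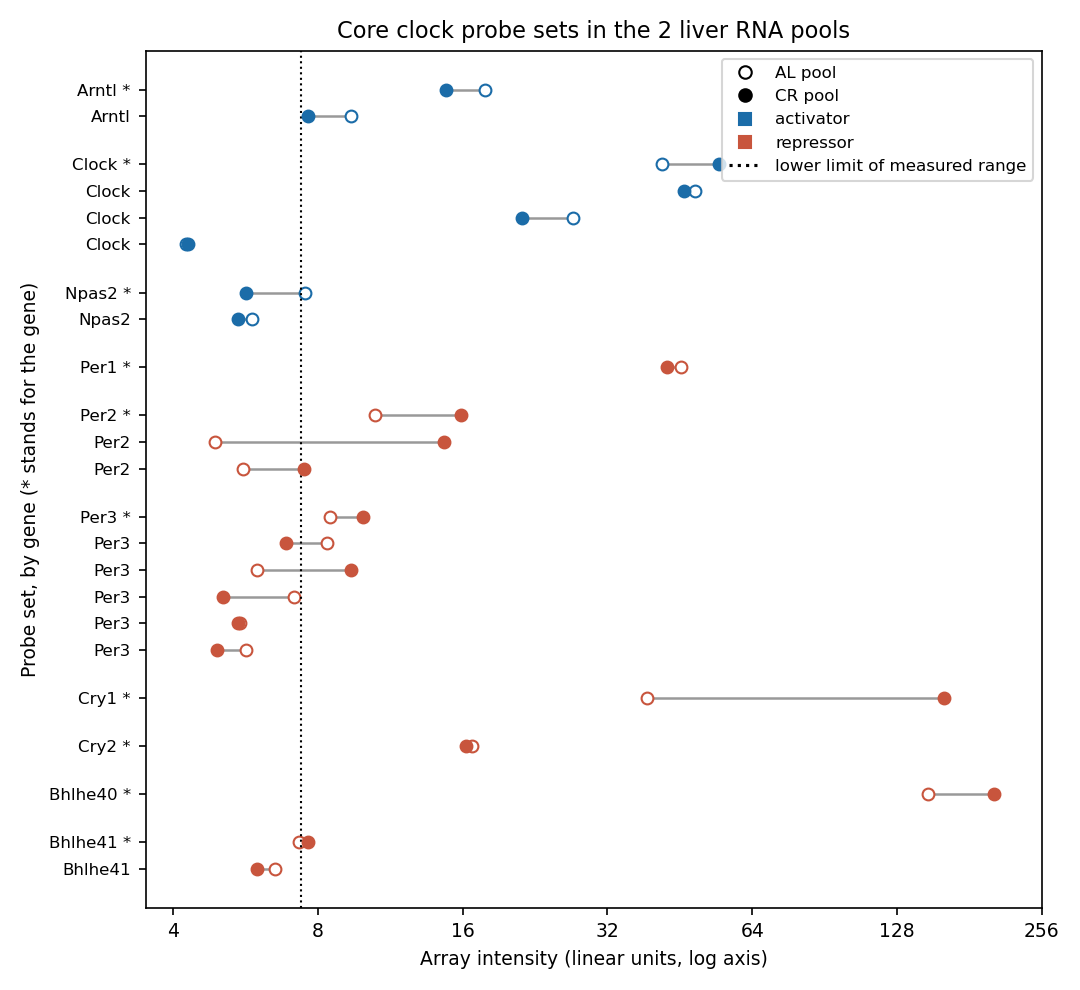
Array intensity (linear units on a log axis) of the 23 probe sets of the core clock genes in the AL pool (open points) and the CR pool (filled points), with a grey line joining the pools and activators and repressors in different colours; the dotted line is the limit of the measured range, 7.38. Cry1 spans 38.6 to 160.2, whereas Npas2, Per3 and Bhlhe41 lie close to the limit.

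The Period genes, whose products carry cryptochromes into the nucleus, did not share a direction. Per1 read 45.5 in AL and 42.5 in CR. Its difference of -0.10 was small beside the range of -1.18 to 1.07 at like brightness.

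Per2 was higher in CR on each of its 3 probe sets. The probe set that stood for the gene read 10.5 in AL and 15.9 in CR, a difference of 0.59. Another read 4.89 in AL and 14.7 in CR, a difference of 1.58, and since AL lay below the limit it was at least 1.98-fold higher in CR. The remaining one read 5.59 in AL and 7.49 in CR, a difference of 0.42, and cleared the limit barely, at least 1.01-fold. All 3 thus pointed the same way, while their sizes had an SD of 0.63. The value of 1.58 lay above the central 95% at like brightness, -0.81 to 0.66, and the value of 0.59 lay within its own. The probe set at 0.42 had a mean below the limit, where probe sets entered the measured range only by differing between pools. Its range was widened by this, so lying within it tells nothing. The 2 probe sets below the limit in AL were in the measured range through the CR pool alone, so for these a positive sign was fixed by the limit.

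Per3 had 6 probe sets, of which 3 were in the measured range and none was far above it. The probe set that stood for the gene read 8.47 in AL and 9.94 in CR, a difference of 0.23. Another read 8.36 in AL and 6.85 in CR, a difference of -0.29, and a further one read 5.96 in AL and 9.38 in CR, a difference of 0.65. The probe set at -0.29 passed the limit through AL alone and that at 0.65 through CR alone, which fixed their signs. The probe set at 0.23 was above the limit in both pools and lay within the range at like brightness, -0.72 to 0.64. That at -0.29 also lay within its own range, -0.702 to 0.605, and that at 0.65 lay above its own, -0.688 to 0.563. No direction could be read for the gene.

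Of the DEC repressors, Bhlhe40 was well above the limit and Bhlhe41 at its edge. Bhlhe40 read 148.5 in AL and 203.9 in CR, a difference of 0.46, which 18.2% of probe sets of like brightness reached or passed. Bhlhe41 had 7.31 in AL and 7.63 in CR, a difference of 0.06, and passed the limit through the CR pool alone. Its other probe set was below the limit, at 6.52 in AL and 5.96 in CR.

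**Figure D2:**
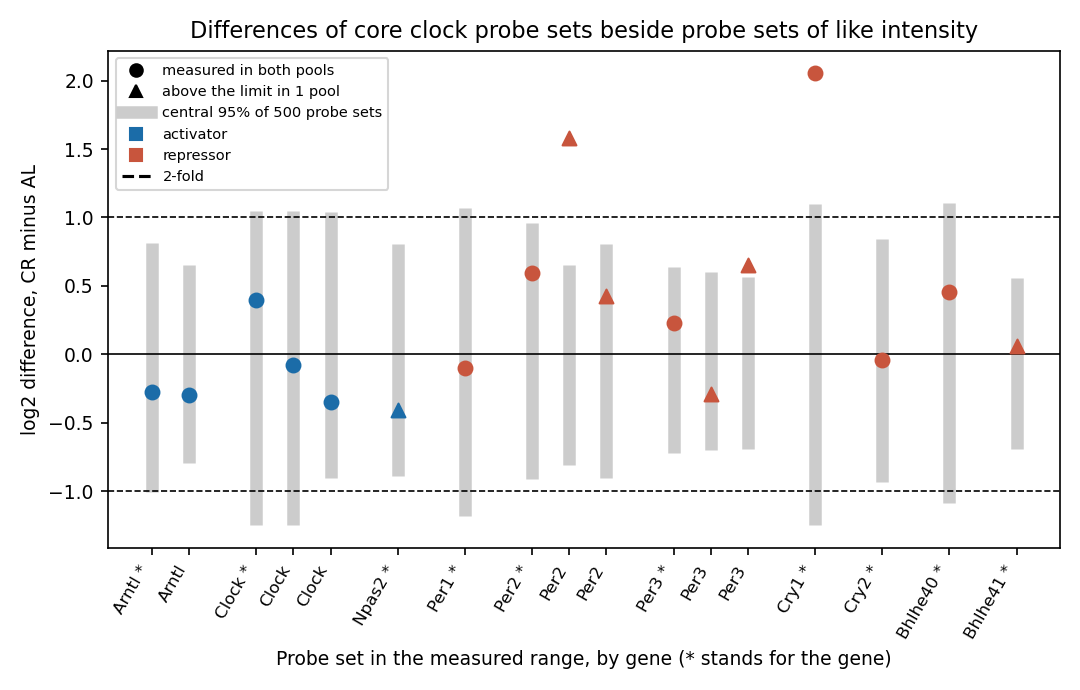
Log2 difference, CR minus AL, of the 17 core clock probe sets in the measured range; circles were at or above the limit in both pools and triangles in 1 pool, grey bars are the central 95% of the 500 probe sets closest in mean intensity, and dashed lines mark 2-fold. Cry1 at 2.05 and a Per2 probe set at 1.58 lie above their bars by the most, and the activators lie inside theirs. Npas2 and the Per2 probe set at 0.42 have means below the limit. Their bars are widened, because probe sets there entered only by differing between pools.

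Set against each other, the activators had a median difference of -0.27 and the repressors of 0.23, a gap of 0.51, beside a median of -0.02 over all measured genes. These medians are the values of Arntl and of Per3, and no direction could be read for Per3. The groups overlapped. Activators ran from -0.41 for Npas2 to 0.39 for Clock, and repressors from -0.10 for Per1 to 2.05 for Cry1. Clock lay above Per1, Per3, Cry2 and Bhlhe41, 4 of the 7 repressors, and Arntl and Npas2 lay below all 7. The place of Clock rested on the probe set at 0.39. The Clock probe set of almost the same brightness, at -0.08, lay above Per1 alone. The smaller gaps given below rest on the probe set at 0.39 as well. The signs of Npas2 and Bhlhe41 were fixed by the limit, since each passed it through 1 pool. By probe set, 1 of 6 activator probe sets in the measured range was higher in CR and 5 lower, and of 11 repressor probe sets 8 were higher and 3 lower. Over all genes 47.3% of probe sets in the measured range were higher. Probe sets of a gene are not independent, and some of these counts rest on probe sets that passed the limit through 1 pool. Counting probe sets at or above it in both pools, 1 of 5 activator and 4 of 6 repressor probe sets were higher, against 47.0% over all genes. Npas2 drops out of that count, and the gene median of the remaining activators, Arntl and Clock, was 0.06, which left a gap of 0.28 to the repressors. At the stricter limit of 21.0 in the higher pool, the 75th percentile of all values, Clock was the single activator left, and the gap between the group medians was 0.06. For single genes, the median SD between probe sets of the same gene was 0.288 over 4924 genes with 2 or more in the measured range, and a gap between 2 groups of genes has no replicate to set it against.

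Scaling also bore on the signs. The bacterial and phage control RNAs added at hybridisation were brighter in CR, with a median difference of 1.02 over all and 0.37 for cre alone. Subtracting 1.02 moved the median of all measured genes to -1.04, the activators to -1.29 and the repressors to -0.78, and subtracting 0.37 moved the repressors to -0.14. Cry1 stayed higher, at 1.04 and 1.68, under these shifts. Because the deposited values had been normalized between arrays, the differences given here are relative to the typical gene.

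**Figure D3:**
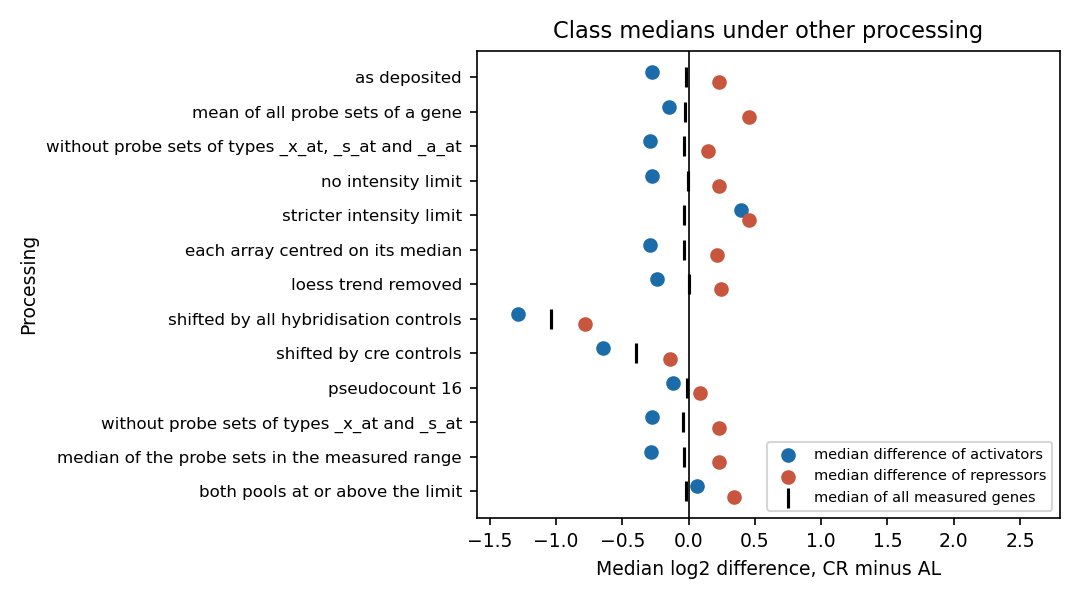
Median log2 difference, CR minus AL, of the activators and of the repressors (points) and of all measured genes (black ticks) under the deposited scale and under each other processing. The repressor median lies above the activator median in each row, with a gap as small as 0.06, and shifts by the hybridisation controls move both below 0.

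The other genes of the clock pathway were placed above 0 more often than below. The list of 28 genes covered the nuclear receptor loop, PAR bZIP factors, kinases and ubiquitin enzymes, protein partners, and output genes. Of these genes, 26 were measured. Past 2-fold, 5 of these 26 were higher in CR and none lower, beside 1.8% and 2.79% over all measured genes, and 19 lay above 0 and 7 below, beside 47.4% above 0 over all. Their median was 0.43. The 5 genes were Usp2, Hlf, Nampt, Tef and Ppara. Noct, singled out after its value was seen, lay just under the threshold at 0.99 and Ppara just past it at 1.04. After the shift by all hybridisation controls, Usp2 alone was higher past 2-fold and 7 genes were lower. Over all measured genes 0.261% were then higher and 54.2% lower.

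The nuclear receptor loop, which acts on ROREs such as that of Arntl, gave little to read. Nr1d1, which encodes the repressor REV-ERB alpha, was below the limit in both pools, at 6.83 in AL and 5.09 in CR. Nr1d2, its paralog REV-ERB beta, had 131.0 in AL and 119.2 in CR, a difference of -0.14. Rora, which encodes an activator at the same elements, had 178.2 in AL and 240.2 in CR, a difference of 0.43. Of 8 Rora probe sets in the measured range 6 were higher and 2 lower, from -0.18 to 1.16. A higher and a lower one of these passed the limit through 1 pool alone, which fixed their signs, and of the probe sets at or above it in both pools 5 were higher and 1 lower. Rorb was below the limit, at 7.33 in AL and 6.89 in CR.

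PAR bZIP factors, which act on D-boxes such as those of Per1 and Per3, were higher in CR on the probe sets that stood for them, while Nfil3 was not. Hlf had 39.6 in AL and 152.0 in CR, a difference of 1.94, with another probe set at 0.59. Tef had 273.1 in AL and 691.1 in CR, a difference of 1.34, with probe sets down to 0.17, of which 1 entered the measured range through the CR pool alone. Dbp, the most strongly rhythmic of the family in liver, had 33.9 in AL and 59.3 in CR, a difference of 0.80, with the other probe set at 0.67, and did not reach 2-fold. Nfil3, a related repressor that competes for the same sites, had 29.0 in AL and 25.3 in CR, a difference of -0.19 on 1 probe set.

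Among the enzymes, Usp2, a rhythmic deubiquitinase that acts on clock proteins, had the largest difference of the list. It read 121.5 in AL and 652.9 in CR, a difference of 2.43, with the other probe set at 2.83. Of 8 measured kinase and ubiquitin genes, Usp2 alone reached 2-fold, and the rest ran from -0.15 for Csnk1e, a kinase of PER proteins, to 0.94 for Gsk3b. The Gsk3b probe sets ran from -1.20 to 0.94, so its value is uncertain. No protein partner of PER, CRY or CLOCK reached 2-fold among 7 measured, from -0.53 for Arntl2, a paralog of Arntl, to 0.70 for Ciart, a repressor of the activator pair.

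Output genes that the clock drives in liver ran from -0.75 to 1.75. Nampt, which encodes the rate-limiting enzyme of NAD salvage, had 47.3 in AL and 159.5 in CR, a difference of 1.75, with another probe set at 1.23. Ppara, the fatty acid receptor gene, had 190.5 in AL and 390.3 in CR, a difference of 1.04, with probe sets up to 1.48. Alas1, the first enzyme of heme synthesis, had 997.2 in AL and 591.2 in CR, a difference of -0.75, with the other probe set at -0.12. These genes have regulators besides the clock.

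**Figure D4:**
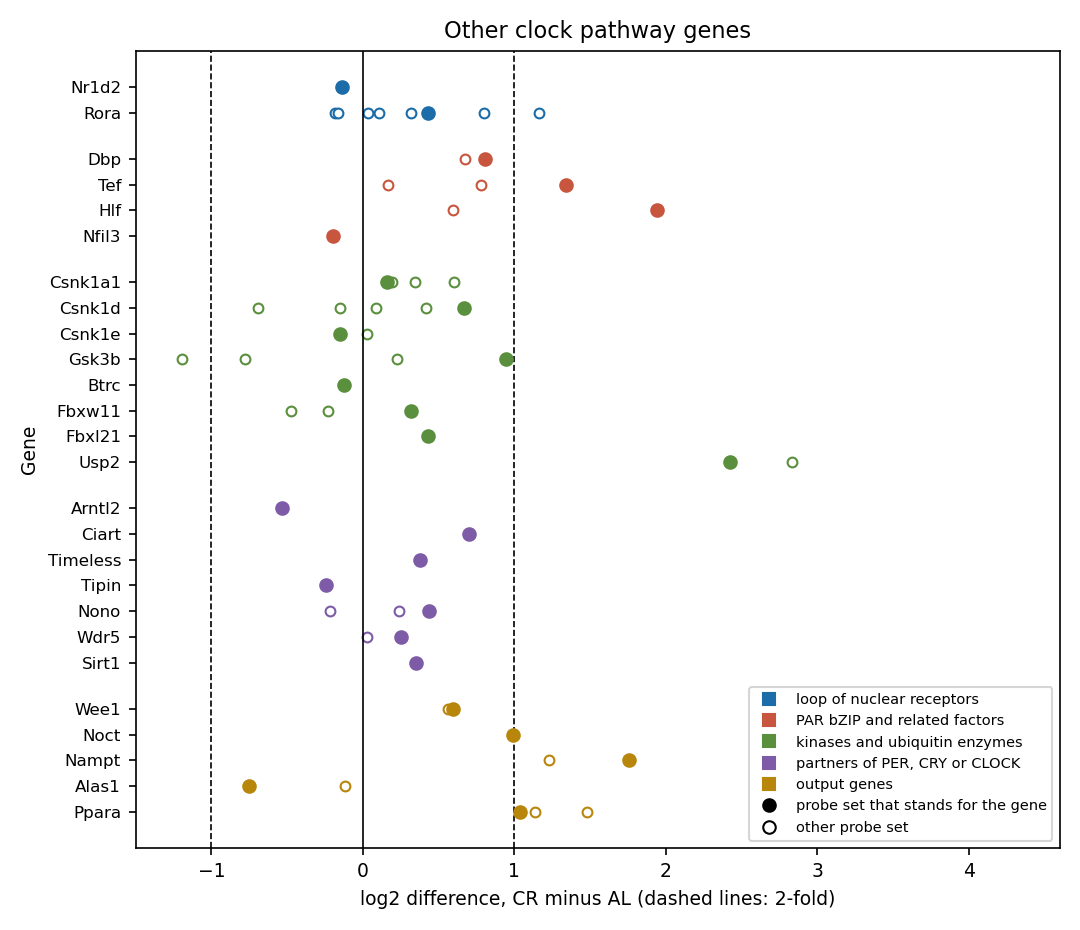
Log2 difference, CR minus AL, of probe sets in the measured range for the other clock pathway genes, coloured by group, with filled points for the probe set that stood for a gene and open points for others; dashed lines mark 2-fold. Usp2, Hlf, Tef, Nampt and Ppara lie past 2-fold, and Gsk3b has probe sets on both sides of 0.

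Both pools carried hepatocyte markers, and markers of other cell types were measured too. All 7 hepatocyte markers were measured, with a summed intensity of 48730 in AL and 46610 in CR and none past 2-fold. Of these, 5 lay below 0 and 2 above, with a median of -0.07, from -0.94 for Apob to 0.43 for Tat. Neutrophil markers were lower in CR beside the clock differences, with 2 of 4 measured, S100a8 at -2.29 and S100a9 at -1.75, and a summed intensity of 94.3 in AL and 26.5 in CR. All 6 macrophage and all 5 stellate cell or fibroblast markers lay below 0, with medians of -0.35 and -0.30 and summed intensities of 1955 against 1735 and of 1026 against 824. Endothelial markers summed to 412.8 and 369.5 and cholangiocyte markers to 55.7 and 54.8. Yet 3 of 4 measured endothelial markers (median 0.15) and 2 of 3 measured cholangiocyte markers (median 0.29) lay above 0. T and NK cell markers summed to 59.2 and 52.8, with 2 of 3 measured below 0, and B cell markers to 12.8 and 13.0. None of these was past 2-fold, and no B cell marker was measured. The control probe sets for beta-actin and Gapdh were lower in CR, from -0.67 to -1.61, and their 3' to 5' intensity ratios were 83.5 in AL and 89.7 in CR for beta-actin and 46.9 and 53.3 for Gapdh. The part of these values in the clock differences was not tested.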

How the data were processed

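The deposited table held linear intensity values, with a column for each pool. Per the submitters' processing notes the authors used RMA, which corrects background, normalizes between arrays and combines probes. Its version, options and later scaling are not given in the sources used here. The scale was read from the values, whose medians were 7.35 in AL and 7.42 in CR and which reached 18092. No detection calls were used. Symbols came from the platform's annotation, and the Entrez IDs of all 10 members led to the same symbols in RefSeq's GRCm38.p6 table.

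Intensities were turned to log2 and CR minus AL was taken. Control probe sets and those with several symbols or none were left out. The named genes were all members, the pathway genes past 2-fold, the nuclear receptor loop and the PAR bZIP group. Some genes of the pathway list are not reported here. The members, lists, motifs and rules were chosen with earlier results of these data known. Genes named as the ends of a range were picked after their values were seen. Results were recomputed under 10 other choices, namely the mean of a gene's probe sets, no _x_at, _s_at and _a_at types, no limit or a stricter one, median centring, loess, shifts by all or by cre controls, a pseudocount of 16 and a 1.5-fold threshold. Added after seeing the data were 3: no _x_at and _s_at types, the median of a gene's measured probe sets, and both pools at or above the limit. Steps were tested on simulated data with large differences planted in genes well above the limit, so that test does not cover values near the limit. The loess fit (span 0.4) came from statsmodels 0.14.6, run with pandas 2.3.3 and numpy 2.4.6 under Python 3.11.15, and figures from matplotlib 3.10.9.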

Additional observations from a re-analysis of the deposited data

How the results depend on the processing

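With 1 array per diet no replicate could be left out, and no paired analysis was possible because each diet had a single pool. The activator median, -0.27, was 0.39 at the stricter limit, 0.059 with both pools at or above the limit, -1.29 after the shift by all hybridisation controls and -0.65 after that by cre. The repressor median, 0.23, was -0.78 and -0.14 after the same shifts. The gap between them, 0.51, was 0.064 at the stricter limit, 0.285 with both pools at or above the limit and 0.20 with a pseudocount of 16, which also moved Per2 from 0.59 to 0.26 and Npas2 from -0.41 to -0.12. The count of core clock genes higher in CR, 1, was 0 without _x_at, _s_at and _a_at probe sets, which removes Cry1, and 2 at 1.5-fold, which adds Per2. The count lower, 0, was 4 after the shift by all controls. That shift placed 54.2% of all measured genes at least 2-fold lower. Of the other pathway genes, 5 higher became 1 after the shift by all controls, 3 after cre and 11 at 1.5-fold. Those lower went from 0 to 7, 1 and 1. Over all measured genes, 0.261%, 0.759% and 6.76% were higher in these settings, and 54.2%, 8.15% and 9.49% lower. Cry1 kept its sign in the 11 alternatives that gave it a value, from 1.04 to 2.09, and Arntl in its 11, from -1.29 to -0.14. Cry1 has a single probe set above both limits, so choices of probe set or limit that kept it could only return 2.05. Arntl, with both probe sets lower in CR, could not change sign under such choices either. Those settings are thus no check on these signs. The other sign appeared for Clock in 3 of 12, Per3 in 2 of 10, Bhlhe41 in 2 of 9, Per2 in 1 of 11 and Bhlhe40 in 1 of 12. Leaving out only _x_at and _s_at probe sets, centring on the median and removing the loess trend changed none of these counts or medians past their yardstick, which was 1.5 times for a count and 0.288 for a median. The members have no probe set of type _x_at or _s_at, so leaving these out could not alter member values. Centring moves all genes by the same amount, so it could not alter the gap. Low signal limits Npas2, Per3 and Bhlhe41 most, and Arntl, Cry2 and Per2 were also not measured at the stricter limit.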
